A study of Mus musculus with 9 samples.

Results

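The MHC class II presentation genes described here are Cd74, H2-Aa, H2-Ab1, H2-Eb1, H2-DMa, H2-DMb1 and Ciita. They were picked by name, with no rule on their values, but earlier results of these data were known at the time. Of these 7 genes, 6 had a row in the deposited table of 13179 genes, and Ciita was not analysed here. All 6 passed the filter on low values, under which 3 or more libraries must reach a value of 1 and which left 13137 genes to test.

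The series measured polyadenylated RNA of mouse gastrocnemius, a calf muscle, in 9 libraries from mice on a high-fat diet for 6 weeks. The p38α KO group (labelled p38alphaMCK-KO, 3 libraries) is labelled as lacking p38α, a stress-activated kinase encoded by Mapk14. The p38α/γ KO group (p38alpha/gammaMCK-KO, 3 libraries) is labelled as lacking p38α together with p38γ, which Mapk12 encodes. The control group (3 libraries) carries no label beyond the word control, so alleles that it may share with the knockouts are not known. All 3 groups received the diet, so no group shows the genes on another feed. The letters MCK usually stand for muscle creatine kinase, whose promoter is widely used to express Cre in muscle fibres. The libraries are of whole muscle, in which other cell types would keep the kinases in such a design. Sex, age and strain are not given, and no label states that the libraries of a group came from different animals. P-values therefore measure the spread between these libraries.

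MHC class II molecules show peptides from engulfed and internal proteins to CD4 T cells. An alpha and a beta chain are assembled with the invariant chain, which fills the peptide groove and guides the complex to endosomes. Proteases there trim the invariant chain to a short stub, and the DM heterodimer swaps the stub for a peptide. Dendritic cells, B cells and some macrophages carry these molecules at all times, while many other cell types, muscle cells among them, can gain them under interferon gamma through the coactivator CIITA. CIITA acts through a protein complex on the X and Y boxes that class II promoters share.

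The 6 measured genes are annotated as protein coding (GRCm38, GENCODE M21), and all but Cd74 lie within 197 kb on chromosome 17. H2-DMa (ENSMUSG00000037649), the alpha chain of DM, is at chr17:34119541-34139101 on the plus strand. H2-DMb1 (ENSMUSG00000079547), a beta chain of DM, is at chr17:34153072-34160230 on the plus strand. H2-Ab1 (ENSMUSG00000073421), the beta chain of the A molecule, is at chr17:34257689-34269419 on the plus strand. H2-Aa (ENSMUSG00000036594), its alpha chain, is at chr17:34282744-34287823 on the minus strand. H2-Eb1 (ENSMUSG00000060586), the beta chain of the E molecule, is at chr17:34305867-34316674 on the plus strand. Mapk14, the targeted gene, is on the same chromosome, 5.37 to 5.56 Mb away from these 5 genes.

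RefSeq promoter windows (GRCm38.p6) were at hand for 4 of the 7 genes. The 3 below are shown because they carry the pair of motifs that marks class II promoters. Each is the 150 bases just upstream of the RefSeq start site, written 5′ to 3′ on the strand of the gene. Capitals mark an X1-like motif, CTNGNAAC, and after it the Y box, GATTGG. H2-Aa is chr17:34287824-34287973 (minus strand), H2-Eb1 is chr17:34305717-34305866 (plus strand) and H2-DMb1 is chr17:34153041-34153190 (plus strand).
H2-Aa: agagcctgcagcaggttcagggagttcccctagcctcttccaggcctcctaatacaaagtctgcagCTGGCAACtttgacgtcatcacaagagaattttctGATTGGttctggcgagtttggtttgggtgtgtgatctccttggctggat
H2-Eb1: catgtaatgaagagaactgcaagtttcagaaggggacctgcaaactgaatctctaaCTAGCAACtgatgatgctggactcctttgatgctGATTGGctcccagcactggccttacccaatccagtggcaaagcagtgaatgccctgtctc
H2-DMb1: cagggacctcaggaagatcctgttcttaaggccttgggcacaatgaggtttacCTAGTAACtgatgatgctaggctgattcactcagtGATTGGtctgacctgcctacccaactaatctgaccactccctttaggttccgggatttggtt

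In H2-Aa the X1-like motif begins 84 bases and the Y box 49 bases upstream of the start, with 27 bases between them. In H2-Eb1 they begin 94 and 60 bases upstream with 26 bases between, and in H2-DMb1 97 and 62 bases upstream with 27 bases between. The spacing of the pair thus differed by 1 base among the 3 promoters. The RefSeq start of H2-DMb1 lies 119 bases from the nearest GENCODE start. The motif letters were spelled with these promoters in view, both strands were searched, and the motifs do not overlap in the 3 promoters. H2-Eb1 also holds 1 Y box on the other strand, which is not in capitals. Over all 32851 RefSeq windows of 300 bases (250 upstream, 50 downstream), 13.2% held the X1-like motif and 16.1% the Y box. The X1-like motif followed by the Y box on one strand within 30 bases was in 42 windows, or 0.128%. Neither RefSeq window of H2-DMa held the pair.

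Each value below is the authors' normalised count for a gene in a library. Levels of different genes are compared only per kb of exon, and differences are of log2(value + 1). Inferred depth was 23.8 to 27.9 M reads per library. Both targeted genes were lower in the groups labelled as lacking them. Mapk14 averaged 43.2 ± 2.63 in the p38α KO, 44.8 ± 9.03 in the p38α/γ KO and 149.5 ± 7.01 in the control (SD, n = 3). Mapk12 averaged 101.5 ± 4.46 in the p38α KO, 33.2 ± 2.18 in the p38α/γ KO and 143.3 ± 7.74 in the control. Mapk12 was thus also lower in the p38α KO, whose label does not name p38γ (log2 −0.49, limma adjusted p = 0.00601). Library 1 of the p38α KO stands apart from its group: the correlations within that group across genes were 0.960 to 0.988, against 0.987 to 0.991 within the p38α/γ KO and 0.991 to 0.993 within the control. Values without it are given where a result rests on it.

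All 6 class II genes were higher in both knockout groups than in the control. For each gene, every knockout library lay above every control library. Cd74 (ENSMUSG00000024610; chr18:60803848-60812652, plus strand), which encodes the invariant chain, had values of 188, 125 and 90.0 in the p38α KO libraries 1, 2 and 3. It had 144, 194 and 151 in the p38α/γ KO, against 51.7, 60.6 and 46.3 in the control. The lowest knockout library, p38α KO 3, was still above the highest control library, control 2. The mean was 134.3 ± 49.9 in the p38α KO, 163.2 ± 27.0 in the p38α/γ KO and 52.9 ± 7.19 in the control (SD, n = 3 each).

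H2-Aa, the alpha chain of A, had 67.6, 46.0 and 32.2 in the p38α KO libraries, 56.0, 68.1 and 51.4 in the p38α/γ KO, and 21.7, 25.5 and 19.2 in the control. H2-Ab1, the beta chain that pairs with it, had 61.3, 41.1 and 25.6 in the p38α KO libraries, 47.5, 58.5 and 46.4 in the p38α/γ KO, and 16.8, 20.6 and 16.8 in the control. H2-Eb1, the beta chain of E, had 50.1, 32.0 and 25.2 in the p38α KO libraries, 42.8, 52.7 and 41.3 in the p38α/γ KO, and 17.8, 19.4 and 14.7 in the control. In all 3 chains the p38α KO library 1 was the highest of its group, library 3 the lowest, and no knockout library reached down into the control range.

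The DM genes showed the same separation. H2-DMa, the alpha chain of DM, had 7.30, 4.43 and 3.79 in the p38α KO libraries, 6.46, 7.07 and 6.00 in the p38α/γ KO, and 2.65, 3.14 and 2.32 in the control. H2-DMb1, its beta chain, had 7.12, 4.55 and 3.40 in the p38α KO libraries, 5.27, 6.23 and 4.49 in the p38α/γ KO, and 1.92, 2.51 and 1.97 in the control. The knockout and control libraries did not overlap for either gene. The inferred reads per library behind these values ran from 1068 to 5558 for Cd74, but only from 53 to 202 for H2-DMa and 45 to 194 for H2-DMb1, so counting error, relative to the value, is largest for the DM genes. The spread of the p38α KO group was wide for every gene, with a coefficient of variation of 35.9% to 42.0%, against 8.25% to 16.6% in the p38α/γ KO and 12.3% to 15.3% in the control.

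**Figure D1:**
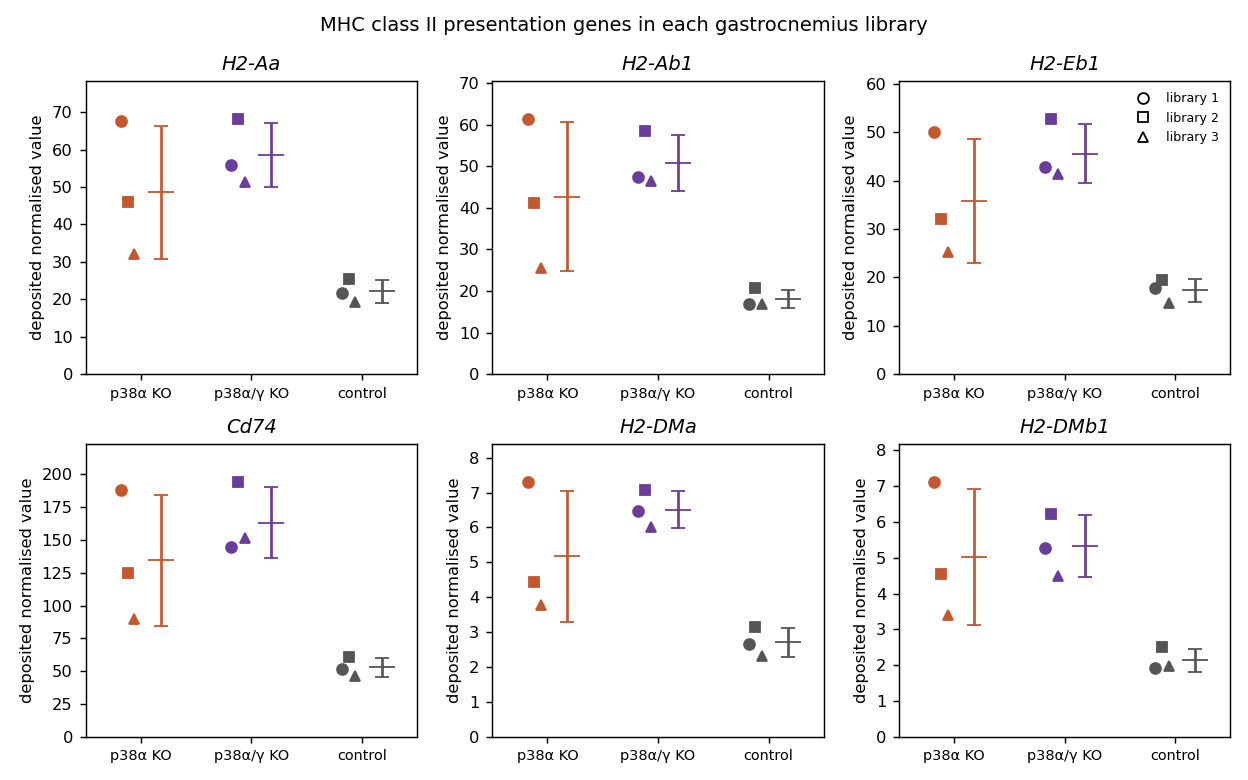
Deposited normalised value (y axis, from 0) of each of the 6 class II genes in each library, for the p38α KO, the p38α/γ KO and the control from left to right, with the group mean and SD (n = 3). Cd74 in the knockouts lies between 90.0 and 194, above all control libraries (46.3 to 60.6), and the other 5 genes show the same separation.

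Per kb of exon, Cd74 had the highest level in each group, at 94.9 ± 35.2 in the p38α KO, 115.2 ± 19.1 in the p38α/γ KO and 37.3 ± 5.08 in the control. H2-Aa followed with 43.1 ± 15.8 per kb in the p38α KO, 51.9 ± 7.65 in the p38α/γ KO and 19.6 ± 2.80 in the control. H2-Ab1 came next with 35.2 ± 14.8, 41.9 ± 5.50 and 14.9 ± 1.83 per kb in those groups in that order. The per-kb ranges of H2-Aa and H2-Ab1 over the libraries of a group overlapped in every group. H2-Eb1 had 21.4 ± 7.69 per kb in the p38α KO, 27.3 ± 3.70 in the p38α/γ KO and 10.4 ± 1.43 in the control. H2-DMb1 had 3.58 ± 1.36, 3.80 ± 0.624 and 1.52 ± 0.231 per kb in the same order of groups, and H2-DMa had the lowest level with 1.94 ± 0.702, 2.44 ± 0.201 and 1.01 ± 0.155 per kb. The order of the means was the same in the 3 groups, and in the p38α KO the ranges of H2-Ab1 and H2-Eb1 and of the DM genes also overlapped. Within a library the order held for each pair of neighbours in 9 of 9 libraries. The lengths are those of all annotated exons of a gene joined, which can overstate the length of the transcript in use. The order of the DM genes rests on these lengths, 2668 bases for H2-DMa and 1404 for H2-DMb1. By deposited value, H2-DMa over H2-DMb1 ran from 0.973 to 1.38 over the 9 libraries.

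In the p38α KO all 6 genes were higher than in the control at an adjusted p below 0.05 in limma. Over all 13137 tested genes 7.32% were called higher in that comparison. Cd74 rose 2.42-fold (log2 1.27, SE 0.234, limma adjusted p = 0.00815). H2-Ab1 rose 2.17-fold (log2 1.12, adjusted p = 0.0179), H2-Aa 2.07-fold (log2 1.05, adjusted p = 0.0158) and H2-Eb1 1.94-fold (log2 0.96, adjusted p = 0.0175) in the same limma fit. H2-DMb1 rose 1.87-fold (log2 0.90, adjusted p = 0.0201) and H2-DMa 1.63-fold (log2 0.70, adjusted p = 0.0351). These folds are of value + 1, which lowers those of the DM genes most. With no pseudocount H2-DMb1 had a log2 difference of 1.18, second to Cd74 at 1.29, and H2-DMa had 0.89, the smallest of the 6. By size of the rise in value + 1, Cd74 ranked 104 and H2-DMa 551 among the tested genes. The median log2 difference of the 6 genes was 1.003, against 0.01 over all tested genes.

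The calls in the p38α KO depend on the libraries in the fit. Cd74 kept its call when any 1 of the 9 libraries was left out, with log2 values from 0.997 to 1.53. H2-Aa, H2-Ab1, H2-Eb1 and H2-DMb1 lost theirs without control 1 and without control 3, with limma adjusted p values of up to 0.0737. In those fits 6.42% and 6.11% of all genes were called in either direction, against 17.8% in the fit with all libraries. H2-DMa lost its call in 6 of the 9 fits (without p38α KO 2, p38α/γ KO 1, p38α/γ KO 3 or any 1 control), with an adjusted p of up to 0.120. Without p38α KO 1 all 6 genes stayed higher, with a median log2 difference of 0.74.

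In the p38α/γ KO all 6 genes were higher as well, where 11.2% of all tested genes were called higher. Cd74 rose 3.04-fold (log2 1.60, SE 0.234, limma adjusted p = 0.00408). H2-Ab1 (log2 1.44, adjusted p = 0.00669), H2-Aa (log2 1.36, adjusted p = 0.00599) and H2-Eb1 (log2 1.35, adjusted p = 0.00532) followed in the same limma fit. H2-DMa had a log2 difference of 1.02 (adjusted p = 0.00848) and H2-DMb1 of 1.01 (adjusted p = 0.0120). Cd74 ranked 70 and H2-DMb1 270 by size of the rise in value + 1, and with no pseudocount the smallest log2 difference was that of H2-DMa, at 1.28. The median log2 difference was 1.36, against 0.02 over all tested genes. H2-DMb1 lost its call without p38α/γ KO 2, at an adjusted p of 0.0563, and the other 5 calls held with any 1 library left out. Both comparisons share the control libraries, so their values stand side by side and are not separate evidence. Every library of the p38α KO lay above every control library for 6 of 6 genes, where 17.6% of all tested genes showed that pattern. For the p38α/γ KO it was also 6 of 6, where 26.4% of all tested genes did.

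No class II gene passed the test between the p38α KO and the p38α/γ KO, where 0.442% of all tested genes were called in either direction. None had an unadjusted p below 0.05 in limma either, the lowest being 0.103 for H2-Eb1. All 6 estimates were below 0. Cd74 had a log2 difference of −0.33 (95% interval −0.85 to 0.19, adjusted p = 0.604) and H2-Eb1 of −0.39 (−0.87 to 0.09, adjusted p = 0.515). H2-Ab1, H2-Aa and H2-DMa each had −0.32, and H2-DMb1 had −0.11 (−0.58 to 0.36, adjusted p = 0.869). The intervals leave room for a level in the p38α KO well under that of the p38α/γ KO, or slightly over it. The result turns on p38α KO 1. For 5 genes, all but H2-DMb1, the p38α KO libraries 2 and 3 lay below every p38α/γ KO library, while library 1 lay within or above their range. Without library 1, Cd74 (log2 −0.61, limma adjusted p = 0.0422), H2-Aa (−0.58, adjusted p = 0.0491), H2-Eb1 (−0.65, adjusted p = 0.0219) and H2-DMa (−0.56, adjusted p = 0.0283) were lower in the p38α KO. H2-Ab1 then had −0.62 at an adjusted p of 0.0507. In that fit 14.3% of all genes were called.

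**Figure D2:**
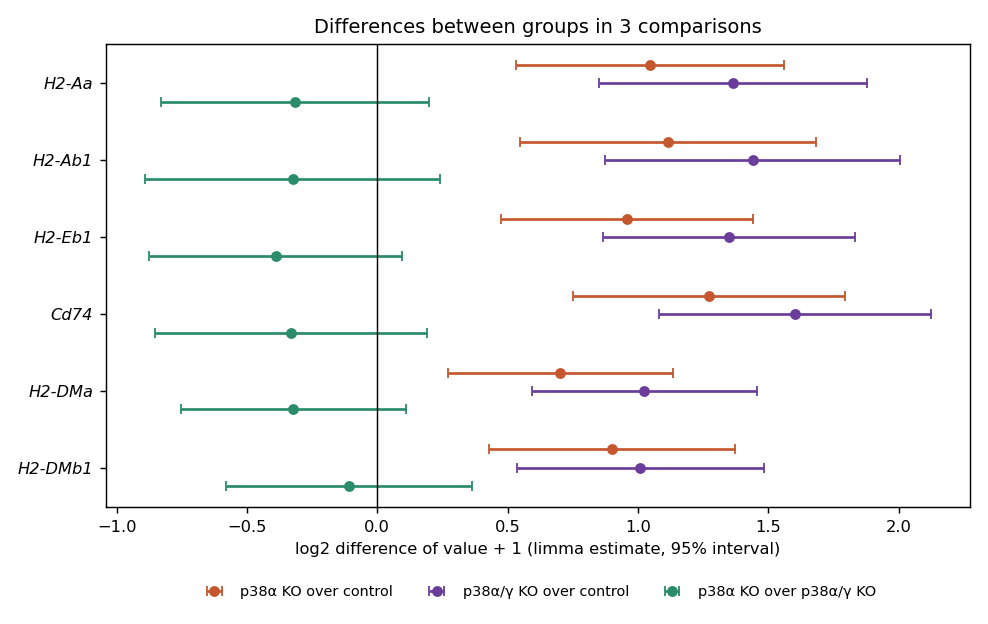
Difference of log2(value + 1) with its 95% interval (limma, x axis) for each class II gene (y axis) in the p38α KO over control, the p38α/γ KO over control and the p38α KO over the p38α/γ KO. The intervals against control lie above 0 for all 6 genes, around estimates from 0.70 (H2-DMa in the p38α KO) to 1.60 (Cd74 in the p38α/γ KO), while every interval between the knockouts spans 0.

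Within a library the 6 genes moved together. In the p38α KO library 1, the genes stood at 2.70 times (H2-DMa) to 3.56 times (Cd74) their control mean. In library 2 they stood at 1.64 (H2-DMa) to 2.36 times (Cd74), and in library 3 at 1.40 (H2-DMa) to 1.70 times (Cd74). The p38α/γ KO libraries lay closer to each other, at 2.39 to 2.73 times in library 1, 2.62 to 3.67 times in library 2 and 2.10 to 2.86 times in library 3. These folds are of the deposited values over the mean of the 3 control libraries.

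Ratios of deposited values within a library can be compared between libraries. They are not set per length, so they are not proportions of transcripts. The ratio of H2-Aa to H2-Ab1, the 2 chains of A, ran from 1.10 to 1.29 over the 9 libraries, with overlap of all 3 groups. The ratio of H2-Eb1 to H2-Ab1 ran more widely, from 0.778 to 1.06, also with overlap of all 3 groups. The DM genes summed to 0.0742 to 0.0866 of the A and E chains measured (H2-Aa, H2-Ab1 and H2-Eb1). Cd74 over the sum of those 3 chains was 1.06 ± 0.0200 in the p38α KO, 1.05 ± 0.0567 in the p38α/γ KO and 0.919 ± 0.00552 in the control (SD, n = 3). Every knockout library, at 0.986 or more, lay above every control library, at 0.925 or less. H2-DMa over H2-DMb1 was 1.04 ± 0.0717 in the p38α KO, 1.23 ± 0.102 in the p38α/γ KO and 1.27 ± 0.103 in the control, and the p38α KO libraries lay below all others. With 3 libraries a group an exact permutation test cannot go below p = 0.1, so these ratios are given without a test. H2-DMb1 shares 363 of its 1354 windows of 51 bases (26.8%) with H2-DMb2, so reads could be split between these copies. The other 5 genes share no such window with another gene's transcripts.

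**Figure D3:**
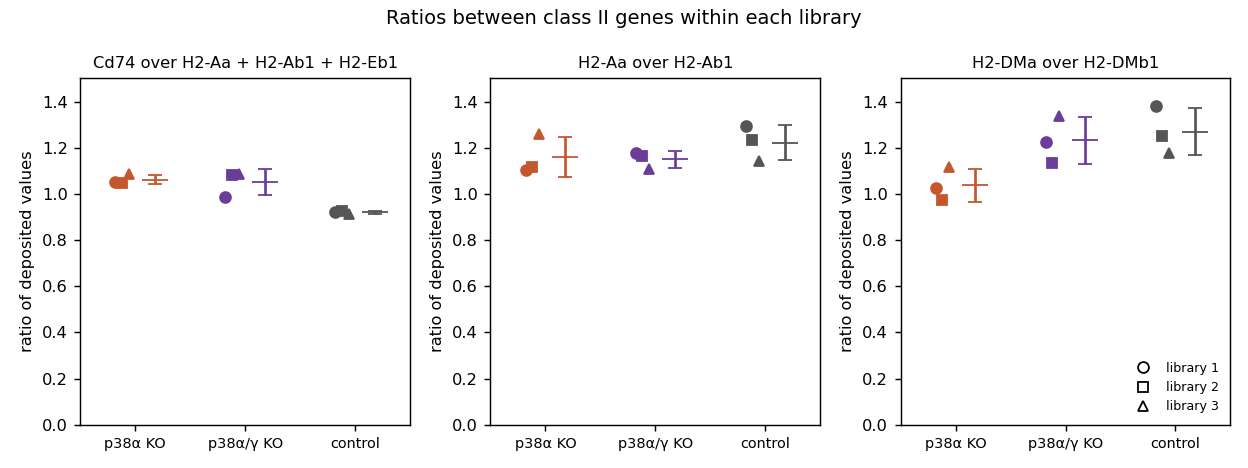
Ratio of deposited values within each library (y axis, from 0) for Cd74 over the 3 chain genes, H2-Aa over H2-Ab1 and H2-DMa over H2-DMb1, with group means and SD (n = 3). Cd74 over the chain genes is 0.986 to 1.09 in the knockout libraries, above the control libraries at 0.914 to 0.925, whereas H2-Aa over H2-Ab1 overlaps between all groups.

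Other genes of class II presentation moved in both directions. Of 36 listed genes, 26 were in the table and all were tested. In the p38α KO 4 were higher and 2 lower, where 17.8% of all tested genes were called in either direction, and the median log2 difference was 0.07. In the p38α/γ KO 7 were higher and 5 lower, where 25.6% of all tested genes were called, and the median was 0.12. Between the knockouts 0 of 26 passed in limma, while 3 had an unadjusted p below 0.05.

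Among the enzymes of the endosome, 3 of 9 were higher in the p38α KO and 5 of 9 in the p38α/γ KO, with 1 lower in each. The share of all tested genes called higher was 7.32% for the p38α KO, while for the p38α/γ KO it was 11.2%. Calls in either direction made up 17.8% and 25.6% of all tested genes, respectively. Ctss encodes cathepsin S, the protease that trims the invariant chain in many antigen-presenting cells. It had 27.8, 23.7 and 11.3 in the p38α KO libraries, 28.1, 37.3 and 15.5 in the p38α/γ KO, and 4.96, 6.66 and 6.52 in the control. Its log2 difference was 1.56 in the p38α KO (limma adjusted p = 0.0171) and 1.91 in the p38α/γ KO (adjusted p = 0.00759), numerically above that of Cd74 in both, which was not tested. Lgmn, which encodes an asparagine-specific endosomal protease, had 73.4, 64.2 and 45.2 in the p38α KO libraries, 63.4, 76.4 and 59.8 in the p38α/γ KO, and 29.4, 26.7 and 24.6 in the control (log2 1.13, limma adjusted p = 0.00371, and log2 1.27, adjusted p = 0.00296). Ifi30, the lysosomal thiol reductase, rose by log2 0.64 in the p38α KO (adjusted p = 0.0432) and 0.80 in the p38α/γ KO (adjusted p = 0.0172). Ctsz (log2 0.73, adjusted p = 0.0195) and Ctsb (log2 0.44, adjusted p = 0.0271), both cathepsin genes, were higher in the p38α/γ KO.

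Sppl2a encodes the intramembrane protease that clears the last fragment of the invariant chain, and it was lower in both knockouts. It had 50.1, 67.4 and 71.6 in the p38α KO libraries, 78.2, 60.8 and 65.2 in the p38α/γ KO, and 111.4, 107.7 and 97.6 in the control. The log2 difference was −0.75 in the p38α KO (limma adjusted p = 0.00932) and −0.63 in the p38α/γ KO (adjusted p = 0.0151), with no overlap between knockout and control libraries. Ctsd, which encodes cathepsin D, did not pass, at 711 ± 38.6 in the p38α KO, 764 ± 50.4 in the p38α/γ KO and 682 ± 23.4 in the control.

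Of 10 genes for factors that act at class II promoters or upstream of Ciita, Irf1 was higher in each knockout and Nfyb lower in the p38α/γ KO. These calls make 1 of 10 against 17.8% of all tested genes for the p38α KO, and 2 of 10 against 25.6% for the p38α/γ KO. Rfx5, Rfxap and Rfxank, the 3 subunits of the factor that binds the X box, did not pass, with log2 differences of 0.23, −0.24 and 0.05 in the p38α KO and of 0.11, 0.01 and 0.05 in the p38α/γ KO. Nfyb, a subunit of the factor that binds the Y box, was lower in the p38α/γ KO (log2 −0.42, limma adjusted p = 0.0377). Nfyc, another subunit, did not pass, at 32.8 ± 1.76 in the p38α KO, 30.3 ± 0.887 in the p38α/γ KO and 33.7 ± 1.71 in the control. Irf1, an interferon-induced factor that acts upstream of Ciita, was higher in both: it had 16.2, 14.4 and 20.01 in the p38α KO libraries, 14.9, 15.5 and 18.9 in the p38α/γ KO, and 9.26, 11.5 and 9.47 in the control (log2 0.68, limma adjusted p = 0.0134, and log2 0.65, adjusted p = 0.0138). Its highest knockout library was p38α KO 3, the library with the lowest class II values of the knockouts.

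Of 4 measured interferon gamma signalling genes, none passed in the p38α KO in limma, where 17.8% of all tested genes were called. Of these 4, 2 were lower in the p38α/γ KO, where the share of all tested genes was 25.6%. Both shares are of calls in either direction. Jak1, a kinase of the interferon gamma receptor, had 74.2, 107.7 and 118 in the p38α KO libraries, 91.1, 70.0 and 79.9 in the p38α/γ KO, and 133, 142 and 133 in the control (log2 −0.46, limma adjusted p = 0.0749 in the p38α KO, and log2 −0.76, adjusted p = 0.0127 in the p38α/γ KO). Jak2, its partner, had log2 −0.70 in the p38α KO (adjusted p = 0.0590) and −0.78 in the p38α/γ KO (adjusted p = 0.0334). The receptor genes Ifngr1 and Ifngr2 did not pass. March8, whose product tags class II molecules for removal in overexpression studies, was lower in both (log2 −0.36, limma adjusted p = 0.0324 in the p38α KO, and log2 −0.32, adjusted p = 0.0364 in the p38α/γ KO). Cd86, a co-stimulatory ligand, was higher in the p38α/γ KO (log2 0.54, adjusted p = 0.0411) at values of 1.004 to 1.24 there, against 0.368 to 0.573 in the control. No control library reached the filter value of 1, so Cd86 was tested only because of its knockout values.

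Few of these calls held whichever library was left out. In the p38α KO the calls of Lgmn and Sppl2a did so, and Ctss lost its call without p38α KO 2, control 1 or control 3 (adjusted p up to 0.0658). Irf1 lost its call there without control 1 or control 3, March8 without any 1 control, and Ifi30 in 7 of 9 fits. In the p38α/γ KO the calls of Lgmn and Ctss held in all 9 fits, and Jak1 lost its call without p38α/γ KO 2 (adjusted p = 0.0595). The other 9 lost theirs in 3 to 6 of the 9 fits each. The number of called genes ran from 2 to 11 in the p38α KO and from 3 to 13 in the p38α/γ KO over these fits, in which the share of all tested genes called ran from 6.11% to 24.8% and from 6.48% to 41.1%.

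**Figure D4:**
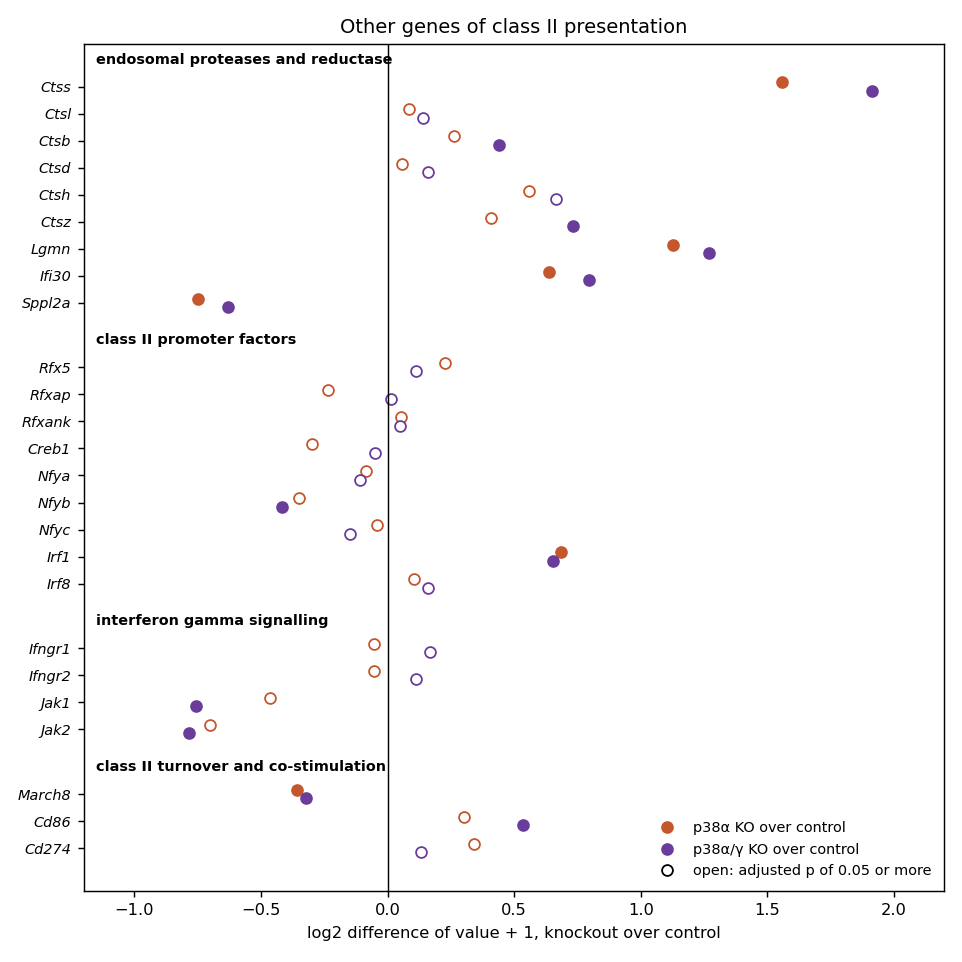
Difference of log2(value + 1) over control (x axis) of 25 of the 26 other genes of class II presentation, grouped by role (y axis), in the p38α KO and the p38α/γ KO. Filled points passed the limma test. Ctss and Lgmn lie farthest to the right, at 1.13 or more, and the promoter factors shown other than Irf1 lie between −0.42 and 0.23.

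Of 11 other tested genes within the class II span on chromosome 17 and 100 kb on either side, 2 were higher in each knockout and 9 did not pass. Over all tested genes 17.8% were called in the p38α KO, while for the p38α/γ KO it was 25.6%, so these counts are near the background. Tap2, a subunit of the peptide transporter for class I molecules, had a log2 difference of 0.56 in the p38α KO (limma adjusted p = 0.0149) and 0.75 in the p38α/γ KO (adjusted p = 0.00532). Psmb8, an immunoproteasome subunit, had 0.55 (adjusted p = 0.0345) and 0.57 (adjusted p = 0.0246) in the same order. In the p38α KO both calls were lost without control 1 or control 3, and that of Psmb8 also without p38α KO 3 or control 2. In the p38α/γ KO the call of Tap2 held in all 9 fits and that of Psmb8 was lost in 5. Their neighbours Tap1 (log2 0.73, adjusted p = 0.0755 in the p38α KO) and Psmb9 (log2 0.58, adjusted p = 0.138) did not pass. Brd2, which overlaps the start of H2-DMa on the other strand, did not pass either (log2 −0.25, adjusted p = 0.0554 in the p38α KO). The library kit kept strand, but whether the counting used it is not given in the sources used here. The median log2 difference of the 11 genes in the p38α KO was 0.10, and in the p38α/γ KO 0.15.

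The motif pair was found in promoter windows of 39 genes, of which 22 were tested and 19 were not class II genes described here. Of those 19, 2 were higher (Dnmt1 and Epha7) and 2 lower (Ift74 and Prdm4) in the p38α KO, and 1 was higher and 3 lower in the p38α/γ KO. These counts of 4 are near the background of 17.8% and 25.6% of all tested genes. Over those 19 genes the median log2 difference in the p38α KO was −0.09, and in the p38α/γ KO −0.01. The 3 class II genes with the pair printed above had log2 differences of 0.90 to 1.05 in the p38α KO.

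The 5 genes most like the class II genes, by Pearson correlation with the mean of their z-scored log2 values over the 9 libraries, were Mcm6 (r = 0.992), Cyba (0.992), Plaur (0.991), Col8a1 (0.989) and Sirpa (0.988). The libraries include the groups that differ, so these correlations are descriptions. Cyba encodes a subunit of the phagocyte NADPH oxidase and Sirpa an inhibitory receptor of myeloid cells, which had 20.7 ± 5.68 in the p38α KO, 23.8 ± 1.90 in the p38α/γ KO and 10.7 ± 1.74 in the control. Plaur encodes the urokinase receptor, Col8a1 a collagen chain and Mcm6 a subunit of the replicative helicase. Plaur had 0.709 to 0.810 in the control and met the filter value of 1 only through knockout libraries. Mcm6 had 7.28 ± 2.96 in the p38α KO, 9.07 ± 1.07 in the p38α/γ KO and 3.27 ± 0.693 in the control (SD, n = 3).

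Markers of macrophages moved with the class II genes. Of 20 macrophage and monocyte genes, 12 were higher in the p38α KO (median log2 0.94) and 16 in the p38α/γ KO (median 1.10), with none lower in limma, where 7.32% and 11.2% of all tested genes were called higher. Summed over the list, values were 176 to 394 in the p38α KO and 195 to 372 in the p38α/γ KO, against 95.9 to 135 in the control. The class II genes summed to 180.1 to 382 in the p38α KO and 301 to 387 in the p38α/γ KO, against 101 to 132 in the control. In both lists p38α KO 1 was the highest of its group and p38α KO 3 the lowest. The ratio of the class II sum to the macrophage sum was 0.943 ± 0.0978 in the p38α KO, 1.21 ± 0.289 in the p38α/γ KO and 1.04 ± 0.0607 in the control. The control range overlapped that of each knockout, while the p38α KO libraries lay below all p38α/γ KO libraries. Over Cd68 alone, a macrophage gene described next, the class II sum was 25.5, 22.0 and 32.8 in the p38α KO libraries, 25.6, 23.1 and 45.5 in the p38α/γ KO, and 40.6, 41.4 and 36.2 in the control. All p38α KO libraries lay below all control libraries in that ratio, and the p38α/γ KO libraries lay on both sides of the control range. The part of macrophage RNA in the class II result was not tested. In whole muscle, more cells of a type and more RNA per cell cannot be told apart.

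Of the defining markers, Cd68, a lysosomal protein of macrophages, had 14.99, 11.5 and 5.49 in the p38α KO libraries, 11.8, 16.7 and 6.62 in the p38α/γ KO, and 2.77, 3.18 and 2.80 in the control (log2 1.48, limma adjusted p = 0.0202, and log2 1.62, adjusted p = 0.0132). Ptprc, the leukocyte antigen CD45, was higher in both (log2 0.74, adjusted p = 0.0458, and log2 0.87, adjusted p = 0.0220). Adgre1, which encodes the macrophage antigen F4/80, had log2 0.78 in the p38α KO (adjusted p = 0.0644) and 0.81 in the p38α/γ KO (adjusted p = 0.0451). The largest differences of the list in the p38α KO were those of the complement genes C1qb (log2 1.66) and C1qc (1.58), followed by Cd68 and by C1qa (1.47), another chain of the same complement protein. The others called there were Lyz2, Fcer1g, Csf1r, Ccr2, Mrc1, Tyrobp, Cd14 and Aif1, and in the p38α/γ KO these 12 together with Adgre1, Cx3cr1, Fcgr1 and Itgam. Cd163, Lyve1, Mertk and Ly6c2 did not pass in either knockout. Aif1, Cx3cr1 and Fcgr1 stayed below 1 in every control library, with highest values there of 0.668, 0.499 and 0.573. They met the filter on low values only through knockout libraries, so their place in these counts rests on the knockout values themselves. The count of 12 in the p38α KO fell to 7 without p38α KO 1, 4 without p38α KO 2, 5 without control 2 and 1 without control 1 or control 3, and it was 16 without p38α KO 3. The share of all tested genes called in those fits was 18.1%, 11.1%, 7.50%, 6.42%, 6.11% and 24.8%, in the order of the libraries named. The count of 16 in the p38α/γ KO became 2 without p38α/γ KO 2, 6 without control 1 or control 3, and 10 without p38α/γ KO 1 or control 2. The share of all genes there was 6.48%, 8.36%, 8.95%, 22.4% and 12.5% in that order.

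Of 6 pan-leukocyte genes, which macrophages carry too, 4 were higher in each knockout (Ptprc, Laptm5, Coro1a and Cd52), and their sum was 23.9 to 62.2 in the p38α KO and 32.7 to 51.6 in the p38α/γ KO, against 15.2 to 19.4 in the control. With 1 library left out the count of genes called higher ran from 0 (without control 1 or control 3) to 6 in the p38α KO. In the p38α/γ KO it ran from 1 (without p38α/γ KO 2, control 1 or control 3) to 6. For the lowest counts the share of all tested genes called is given above with the macrophage genes. The count of 6 in the p38α KO was that without p38α KO 3, for which the share is also given there. In the p38α/γ KO without p38α KO 1, where the count was 6, 41.1% of all tested genes were called. Of 10 dendritic cell genes 4 were in the table, and Clec10a, a lectin that some macrophages also carry, was higher in both knockouts (log2 0.75, limma adjusted p = 0.0498, and log2 0.83, adjusted p = 0.0300). Itgax, which encodes CD11c, met the filter on low values only through knockout libraries, at 0.672 or less in the control. It did not pass (log2 0.62, limma adjusted p = 0.221, and 0.84, adjusted p = 0.0896). The other genes in the table went the other way in the p38α KO and did not pass in either knockout. Zbtb46 had 4.50 to 5.14 in the p38α KO and 6.15 to 6.41 in the p38α/γ KO, against 5.79 to 7.88 in the control. Cd209a averaged 0.826 in the p38α KO, 1.45 in the p38α/γ KO and 0.907 in the control. The dendritic cell genes summed to 10.8 to 16.4 in the p38α KO and 14.3 to 17.7 in the p38α/γ KO, against 9.36 to 14.2 in the control. Of 8 B cell genes 3 were in the table and none passed in limma. Ighm, the heavy chain of IgM, had 58.0, 53.5 and 127 in the p38α KO and 108, 46.0 and 231 in the p38α/γ KO, against 52.2, 47.9 and 76.3 in the control. Ighm was highest in library 3 of each group, where the class II sum was lowest. Blnk, a B cell adaptor gene that myeloid cells also use, was lowest in library 3 of both knockouts, with 4.30, 3.13 and 1.97 in the p38α KO libraries, 2.78, 3.79 and 2.40 in the p38α/γ KO, against 2.45, 2.27 and 2.54 in the control. Igkc, the kappa light chain, was also lowest in library 3 of both knockouts and highest there in the control, at values of 0.182 to 2.57 over all libraries. The 9 T and NK cell genes and 4 neutrophil genes of the lists, Cd3e and S100a8 among them, were not analysed here, nor was Cd79a.

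Muscle fibre genes had lower sums in the knockout libraries. The 9 fast fibre genes summed to 104126 to 152709 in the p38α KO and 128759 to 134127 in the p38α/γ KO, against 170151 to 185214 in the control. Of these 9, Acta1, the skeletal actin gene, was lower in the p38α KO (log2 −0.59, limma adjusted p = 0.0270) and none passed in the p38α/γ KO. Not all 9 had lower means: Myh2, a fast myosin gene, had 3950, 3781 and 4132 in the p38α/γ KO, against 2867, 2015 and 2039 in the control, with no overlap (log2 0.80, limma adjusted p = 0.164). Without p38α KO 1 in the fit, Myh1 was higher in the p38α/γ KO and Ckm, Myh4 and Tnnt3 were lower, where 41.1% of all tested genes were called. Of 6 fibro-adipogenic progenitor genes none passed in the p38α KO and 3 were higher in the p38α/γ KO (Pdgfra, Dcn and Lum), where 11.2% of all tested genes were called higher. Without p38α KO 1 the count of progenitor genes was 6 of 6 in the p38α/γ KO, where 41.1% of all tested genes were called. It was 0 without p38α/γ KO 2, p38α/γ KO 3, control 1 or control 3. The share of all genes without p38α/γ KO 2, control 1 or control 3 is given above with the macrophage genes. Without p38α/γ KO 3 the share lay within the range given for the p38α/γ KO with the pathway genes. The 6 progenitor genes summed to 837 to 1788 in the p38α KO and 1309 to 1789 in the p38α/γ KO, against 812 to 1048 in the control. Of 6 endothelial genes none passed in the p38α KO, while Egfl7 was higher and Cdh5 lower in the p38α/γ KO, where 25.6% of all tested genes were called in either direction. Kdr and Tek joined Cdh5 as lower without p38α KO 1, where the share was 41.1%. Over all marker lists, 1 of 18 calls in the p38α KO (C1qb) and 3 of 26 in the p38α/γ KO (Coro1a, C1qc and Fcer1g) held whichever library was left out. The share of all called genes that held in this way was not computed. The part of these shifts in the class II result was not tested.

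**Figure D5:**
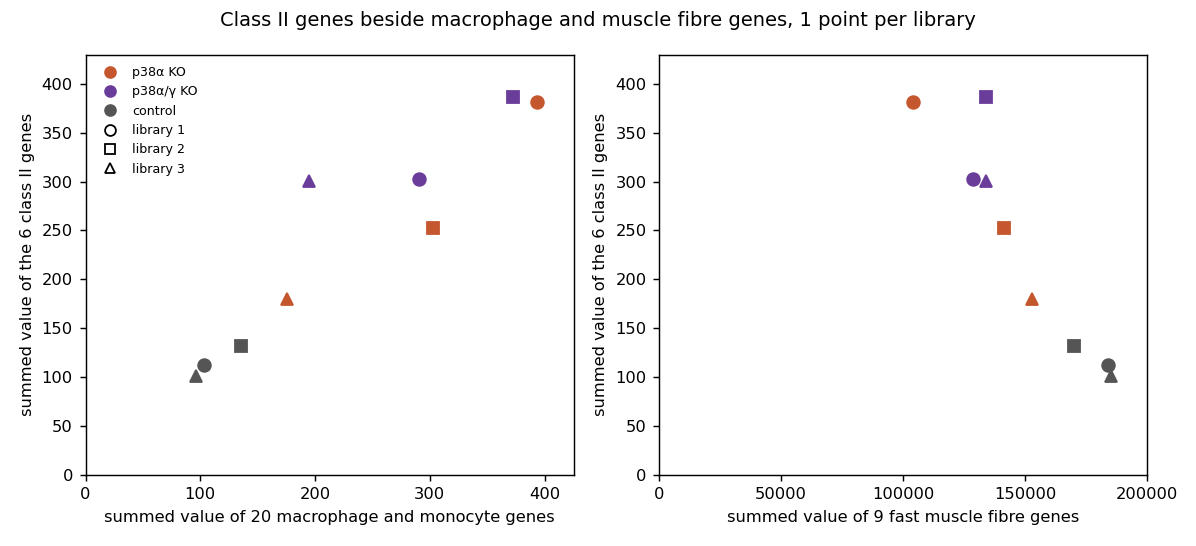
Summed value of the 6 class II genes (y axis) beside the summed value of 20 macrophage and monocyte genes (left) and of 9 fast muscle fibre genes (right), 1 point per library. The control libraries lie at 101 to 132 for class II with the lowest macrophage sums (95.9 to 135) and the highest fibre sums (170151 to 185214), and p38α KO 1 lies at the other end of both panels among the p38α KO libraries.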

How the data were processed

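Polyadenylated RNA was sequenced from 9 gastrocnemius samples in 3 groups of 3. Per the labels' protocols, 100 ng of RNA with RIN above 8 entered a directional library kit and gave single reads of 51 bases. Per the submitters' processing notes, CASAVA 1.8, cutadapt, RSEM 1.3.1, limma and GRCm38 were used, with no order or role given. The deposited signal values are named normalised counts by the authors, and their scaling is not given in the sources used here. Every value was an odd multiple of the smallest in its library, within 0.001 reads, and the implied whole numbers served only for depth and for the reads behind a value. They were not tested as counts.

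Genes that reached a value of 1 in 3 or more libraries entered limma 3.58.1 (R 4.3.3) on the scale log2(value + 1), with a mean-variance trend and all 9 libraries in 1 fit. Calls are at a Benjamini-Hochberg adjusted p below 0.05 over all tested genes. Fold changes are of value + 1, which understates low genes. Named genes were the class II genes, called genes of the pathway and marker lists with the gene of highest deposited value, not set per length, in each pathway list, defining markers, the 5 genes most like the class II genes, Mapk14 and Mapk12. The endothelial, stromal, muscle and motif genes and the chromosome 17 neighbours were named for context. The genes and lists were chosen with earlier results of these data known. Some genes of the lists enter the counts but are not reported here by name. The script was tested on simulated data. Python 3.11.15 with matplotlib 3.10.9 drew the plots.

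Same-numbered libraries of the p38α/γ KO and the control deviated together from their group means (r = 0.111, 0.124 and 0.148 across genes), a weak match that no label states. In the other comparisons at least 1 such r was negative. Differently numbered libraries reached larger values, with 0.344 for p38α KO 1 with p38α/γ KO 2 and 0.351 for p38α KO 2 with p38α/γ KO 1. A pairing of libraries was not tested. Alternatives changed the filter, pseudocount, scaling, spread estimate, libraries, block and threshold. A fit without pseudocount, one with array weights, one of 6 libraries with the block and marker counts without p38α KO 1 were added after seeing the data.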

Additional observations from a re-analysis of the deposited data

How the results depend on the processing

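Direction was kept by all 6 class II genes against control under every alternative run, and scaling by TMM factors, median of ratios or quantiles changed no call count by over 1.5 times. In the p38α KO over control, 6 class II genes were called, 1 at an adjusted p below 0.01, 1 in the fit of 6 libraries with the replicate block, and 1 to 6 when 1 library was left out. Pathway genes called there were 6, with 2 at an adjusted p below 0.01, 15 with array weights, 1 in 6 libraries with the replicate block, and 2 to 11 when 1 library was left out. In the p38α/γ KO over control, 5 to 6 class II genes were called under all alternatives, and pathway genes numbered 12, with 2 at an adjusted p below 0.01 and 3 to 13 when 1 library was left out. Between the knockouts, array weights called 2 class II genes (H2-Eb1 and H2-DMa, both lower in the p38α KO) and 4 pathway genes, and leaving out 1 library called 0 to 4 and 0 to 2. The log2 difference of H2-DMb1 there ran from −0.35 to 0.094 when 1 library was left out, turning positive without p38α KO 3 (limma adjusted p = 0.913). The replicate block with all 9 libraries kept the calls of all 6 class II genes in the p38α/γ KO, whose same-numbered libraries had the weak positive r with the control. The causes of these changes were not tested. Depth limits the DM genes most, with 45 to 202 inferred reads a library.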
